A study of Mus musculus with 3 samples.

Results

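CTCFL binding was examined at 10 genes of the DNA methylation machinery in mouse embryonic stem (ES) cells. The genes were chosen by name, for what their products do, with earlier results of these data known, and they make up 10 of the 22359 protein-coding genes of the GENCODE annotation on mm9. They are the DNA methyltransferase genes Dnmt1, Dnmt3a and Dnmt3b with their cofactor gene Dnmt3l, the oxidase genes Tet1, Tet2 and Tet3, and the partner and reader genes Uhrf1, Mbd2 and Prmt7. The ES cells carried rtTA in the ROSA26 locus and a TRE-driven mouse CTCFL-V5-GFP transgene, grown with LIF on gelatin. In the induced condition they received doxycycline for 3 days, GFP-positive cells were sorted, and chromatin was precipitated with the V5 antibody. The non-induced condition was the same line without doxycycline and without sorting, and a further library was made with a CTCF antibody, in the transgenic line by the labels and in normal ES cells by the study's methods. Each of these 3 conditions had 1 library, so there is no spread between replicates, and no difference was tested. How many clones of the line were used was not given in the sources used here. The values are the intervals of the 7436 CTCFL peaks of the induced cells, with no height and no number of reads. The threshold behind the list was not given in the sources used here, and the list does not have the same number of sites as the study's own set, so the shares below hold for the list as deposited. Depth is therefore unknown, and the same peak list for the other libraries was not analysed here. RNA was not part of these data, so the ES cell label could not be checked against marker genes, and binding says nothing of how much of a gene's RNA was made.

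DNA methylation in mammals is the addition of a methyl group to cytosine, mostly where a guanine follows (CpG). DNMT3A and DNMT3B set the mark on unmethylated DNA, helped by the catalytically inactive DNMT3L in germ cells and early embryos. DNMT1 copies it to the new strand after replication, guided there by UHRF1, which recognizes hemimethylated CpG. TET enzymes oxidize 5-methylcytosine and so begin its removal, and MBD2 reads methylated CpG as part of a repressor complex. CTCFL, also called BORIS, is the testis paralog of CTCF and has nearly the same zinc fingers. Earlier work linked it to the methylation of imprinted loci through the arginine methyltransferase PRMT7. The study behind these data detected no methylation changes at specific loci in Ctcfl mutant mice or in cells overexpressing CTCFL. It also reports that its mutant mice lacked the embryonic phenotypes often caused by imprinting mutations and could be bred for several generations. On these grounds it considers a role of CTCFL in imprinting through DNA methylation unlikely.

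The data put 8 different CTCFL peaks at 6 of the 10 genes, and none of these lay at the most upstream TSS of a protein-coding transcript. Here the center of a peak is the middle of its interval, a TSS is that of a protein-coding transcript unless stated, and distances are negative upstream in the direction of transcription. Tet1 was the only member with a peak center from -2 kb to +1 kb of any TSS, the interval used for bound genes (10% of the members, 95% Wilson interval 1.79 to 40.4%), where 11.2% of all protein-coding genes had such a peak. Taking only the most upstream TSS of each gene, a choice made after the data had been seen, 0 of 10 members and 10% of all genes (2241) had a peak in that interval. Peaks inside the gene were found at Dnmt3a, Dnmt3l, Tet1 and Mbd2, which is 40% of the members (16.8 to 68.7%) beside 15.0% of all protein-coding genes. The members are long, from 20166 bp at Uhrf1 to 108437 bp at Dnmt3a with a median of 51805.5 bp, while the median of all genes was 15427 bp. Among the 9712 genes of 20 kb or longer, 23.3% had a peak in the gene body, 13.8% in the promoter interval and 39.5% within 40 kb of a TSS. Within 40 kb of a TSS, Dnmt3b and Uhrf1 joined these 4 members, which made 6 of 10 (31.3 to 83.2%) beside 41.7% of all genes. A peak within 20 kb was found at 4 of 10 members, beside 29.2% of all genes, and within 100 kb at 8 of 10, beside 60.3% of all genes. Dnmt1, Tet2, Tet3 and Prmt7 had no peak in the promoter interval, in the gene or within 40 kb. The shares of all genes lay inside the intervals of the members for the promoter and for 40 kb, and below the interval for the gene body, where the share of the long genes lay inside it. The Wilson intervals cover counting error only.

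**Figure D1:**
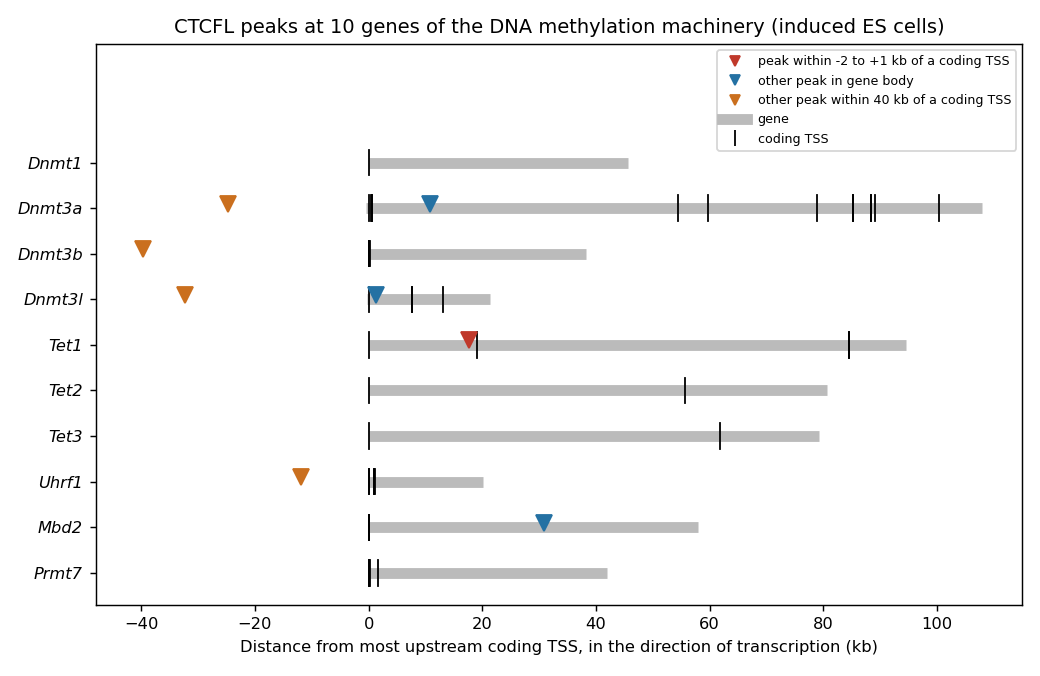
Positions of CTCFL peaks (triangles: red in the promoter interval of a coding TSS, blue elsewhere in the gene, orange elsewhere within 40 kb) at the 10 genes, with each gene (gray bar) drawn from its most upstream coding TSS in the direction of transcription, in kb, and its TSSs of protein-coding transcripts as black ticks. No triangle lies at 0 kb, the Tet1 peak lies just before an internal tick, and 4 genes (Dnmt1, Tet2, Tet3 and Prmt7) have no triangle.

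The sites in 7 of the 8 peaks, all but that of Mbd2, are printed first, to show the best match of each peak to a motif read from the CTCFL logo. The motif was read from the published CTCFL logo as CC, then 3 free bases, then AGGNGGCGC, so that it has 14 positions of which 10 are fixed, counted from 1 at the 5′ end. Both strands were searched, and the match with the fewest mismatches in each peak was taken. Each fixed position counted alike. The study, however, describes the leading CC and the A at position 6 as less prevalent in the CTCFL motif than in that of CTCF. The number of mismatches therefore does not rank the sites by their likeness to the CTCFL motif. Its inner part, AGGNGGC at positions 6 to 12, is contained in the longer motif. Each line gives 30 bases of mm9, 5′ to 3′ on the strand of the match, with the 14 positions of the match in capitals.
Dnmt3l and Aire, chr10:77506285-77506314, minus strand: cgcgtgggCCAGCAGGGGGCGCcgaggcgc
Dnmt3a upstream, chr12:3781732-3781761, plus strand: gggactggCCGCCAGGGGGCGCactgcctg
Uhrf1 upstream, chr17:56430792-56430821, plus strand: gcatgttgCCACCAGGTGGCGCcctgctcg
Tet1 intron, chr10:62344121-62344150, plus strand: cctgtaccCACATAGGGGGCGCtgtaactc
Dnmt3a intron, chr12:3817253-3817282, plus strand: tcagaaggCCTGAAGGGGGCGTccgtggga
Dnmt3b upstream, chr2:153435498-153435527, plus strand: actgctgaCCGCTAGAGGGGGCtggagccc
Dnmt3l upstream, at Pfkl, chr10:77472624-77472653, plus strand: gctgcgctAAGAAAGGCGGAGCgcacgcca

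The first 3 of these sites met all 10 fixed positions. The Tet1 site carried C2A and the intronic Dnmt3a site C14T. The Dnmt3b site carried G8A and C12G, and the Dnmt3l site at Pfkl carried C1A, C2A and C12A. In the Mbd2 peak the best match had 4 mismatches. Thus 5 of the 8 peaks held the motif at up to 1 mismatch, beside 43.9% of all 7436 peaks, and 3 held it without mismatch, beside 12.8% of all peaks. At up to 2 mismatches the number was 6 of 8, beside 76.7% of all peaks. The inner AGGNGGC was present without mismatch anywhere in the peak in 7 of 8 peaks, beside 60.9% of all peaks. It was absent from the Dnmt3l peak at Pfkl. In the Dnmt3b peak it was present, but not at positions 6 to 12 of the best match, where G8A and C12G lie. The best match held a CpG at positions 12 and 13, the bases C and G of the fixed motif, in 5 of the 8 peaks, beside 51.7% of all peaks. With 8 peaks these shares are a description, and nothing particular to the members is read from them. The best matches lay 2.5 to 88.5 bp from the peak centers, with a median of 38 bp, compared with 41 bp over all peaks. All 36-base windows of the 8 peaks occurred once in the genome (100% in each).

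Of the DNA methyltransferase genes, Dnmt3l, whose product stimulates DNMT3A and DNMT3B, had the peak nearest to a TSS. Dnmt3l (ENSMUSG00000000730.7) lies on chromosome 10 from 77504692 to 77526367 on the plus strand, with 4 TSSs of protein-coding transcripts. The peak chr10:77506022-77506642 was 621 bp wide and ranked 1264 in width among all peaks. Its center was 1300 bp downstream of the most upstream coding TSS, in an intron of Dnmt3l and just outside the promoter interval, and it was -6255, -6372 and -11748 bp from the internal TSSs. Aire, the autoimmune regulator gene that is transcribed in the opposite direction, has a coding TSS at 77506325. The peak center was only -7 bp from this TSS and within an annotated exon of Aire. The peak therefore lies at a start of Aire and within the first part of Dnmt3l at the same time. The list cannot assign it to either gene. It held the motif without mismatch from 77506293 to 77506306, 32.5 bp from its center. G and C made up 58.9% of its bases and the ratio of observed to expected CpG was 0.598, higher than in 73.1% of all peaks. The second peak within reach of Dnmt3l, chr10:77472541-77472856 (316 bp), had its center at -32334 bp. It lay in an annotated intron of Pfkl, which encodes liver phosphofructokinase, at -146 bp from a TSS inside that gene. Another exact motif match lay between both peaks, at -23382 bp (77481644 to 77481657), and was not in a peak.

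Dnmt3a, the gene of a de novo methyltransferase, had a peak on each side of its most upstream TSSs. The gene (ENSMUSG00000020661.9) lies on chromosome 12 from 3806007 to 3914443 on the plus strand and has 13 TSSs of protein-coding transcripts. Of these, 4 lay together between 3806527 and 3807160 in CpG-rich DNA, and the others were spread over the gene. The intronic peak chr12:3817074-3817432 (359 bp, rank 5578) had its center 10726 bp downstream of the first of these TSSs and 10093 bp downstream of the last. The internal TSSs at 3891728 and 3891744 were far from it, at -74475 and -74491 bp. This peak was poor in CpG, with 4 CpGs and a ratio of 0.149, although G and C made up 57.4%. The intronic site is shown with 100 bases on either side of the match, from chr12:3817161-3817374 on the plus strand, to show the sequence around a peak that is far from a TSS.
Dnmt3a intron: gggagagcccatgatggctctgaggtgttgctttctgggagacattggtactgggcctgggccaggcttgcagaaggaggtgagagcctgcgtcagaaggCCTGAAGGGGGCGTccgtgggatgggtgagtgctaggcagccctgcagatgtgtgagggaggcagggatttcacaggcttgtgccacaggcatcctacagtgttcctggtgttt

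The upstream Dnmt3a peak, chr12:3781632-3781856, was the narrowest of the 8 at 225 bp and ranked 7302 in width. Its center lay at -24783 bp from the first coding TSS of Dnmt3a, within an exon of Dtnb, the dystrobrevin beta gene. No coding TSS of another gene was nearer. This small peak held the motif without mismatch, 2.5 bp from its center, and its ratio of observed to expected CpG was 0.288. The start of Dnmt3a itself also held an exact match, with its center at -3 bp from the TSS at 3807030, but there was no peak.
Dnmt3a start, chr12:3807021-3807034, plus strand: CCGGGAGGCGGCGC
A further exact match at -14528 bp was also outside a peak, so that 1 of the 3 exact matches around Dnmt3a was in the list.

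Dnmt3b, which encodes the other de novo methyltransferase and is highly expressed in the early embryo, had a peak near the limit of the 40 kb window and no other. The gene (ENSMUSG00000027478.9) lies on chromosome 2 from 153475186 to 153513466 on the plus strand, and its 4 coding TSSs lie within 167 bp of each other. The peak chr2:153435199-153435843 was the widest of the 8 at 645 bp (rank 1046). Its center lay at -39665 bp in an intergenic region, and a TSS of Commd7 was nearer, at 22936 bp. The site is shown with its surroundings, chr2:153435406-153435619, because the peak is wide and lies away from any start.
Dnmt3b upstream: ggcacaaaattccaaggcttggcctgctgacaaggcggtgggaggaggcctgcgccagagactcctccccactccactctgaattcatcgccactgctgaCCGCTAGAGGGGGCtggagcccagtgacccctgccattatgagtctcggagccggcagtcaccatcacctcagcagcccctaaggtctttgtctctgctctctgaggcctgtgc

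Dnmt1, the maintenance methyltransferase gene, had no peak within 40 kb of its single annotated TSS at 20757317. The gene (ENSMUSG00000004099.8) lies on chromosome 9 from 20711650 to 20757317 on the minus strand. The nearest peak, chr9:20702899-20703477 (579 bp), lay 8462 bp beyond the 3′ end of the gene and 54129 bp from the TSS. It was at -144 bp from a TSS of Eif3g, a translation initiation factor gene. On the 5′ side the next peak was 76709 bp away, in an exon of Icam4.

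Tet1, which encodes the main TET enzyme of ES cells together with TET2, was the only oxidase gene with a peak. It lies on chromosome 10 from 62267318 to 62361866 on the minus strand (ENSMUSG00000047146.8) and has 4 coding TSSs. The peak chr10:62344044-62344404 (361 bp, rank 5535) was in an intron, 17642 bp downstream of the most upstream TSS at 62361866. It was -1462 bp from the internal TSS at 62342762, which 2 protein-coding transcripts share, and -66936 and -66937 bp from the most internal coding TSSs. The DNA around the internal TSS was richer in CpG than that around the most upstream TSS. The ratio of observed to expected CpG over 500 bp on either side was 0.631 at the former and 0.27 at the latter. The peak itself was rich in A and T, with 38.2% G and C, and 1.87% of all peaks had as little or less. The single motif match at up to 1 mismatch ran antisense to Tet1, 88.5 bp from the peak center.

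Tet2 and Tet3 had no peak nearby. At Tet2 (ENSMUSG00000040943.7, chromosome 3, 133126643 to 133207354) the nearest peak lay 538168 bp from a TSS, and 89.6% of protein-coding genes had a peak as near or nearer. On the 5′ side of Tet2 the next peak was 1804233 bp away. Tet3 (ENSMUSG00000034832.8, chromosome 6, 83312367 to 83391672) was 111428 bp from the nearest peak, at 62.6% of genes. Both genes have 2 coding TSSs, and neither pair was near a peak. Around the upstream TSS the ratio of observed to expected CpG was 0.92 at Tet2, and there were 3 motif matches at up to 1 mismatch from -2 kb to +1 kb. This upstream TSS of Tet2 was 593887 bp from the nearest peak. At Tet3 the ratio was 0.537 and there was no such match.

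Among the partners and readers, Uhrf1 had a peak upstream. Uhrf1 (ENSMUSG00000001228.8) lies on chromosome 17 from 56442744 to 56462909 on the plus strand, and its 5 coding TSSs were within 1086 bp of each other. The peak chr17:56430588-56431163 (576 bp, rank 1793) had its center at -11869 bp from the most upstream of them and at -12955 bp from the most downstream. It lay in an intergenic region and was closer to Plin3, a lipid droplet protein gene, at -941 bp from its TSS. Its exact match was the only one at up to 1 mismatch within 40 kb of a Uhrf1 TSS. The surrounding sequence, chr17:56430700-56430913 on the plus strand, is shown because the peak lies in the promoter interval of a neighboring gene.
Uhrf1 upstream: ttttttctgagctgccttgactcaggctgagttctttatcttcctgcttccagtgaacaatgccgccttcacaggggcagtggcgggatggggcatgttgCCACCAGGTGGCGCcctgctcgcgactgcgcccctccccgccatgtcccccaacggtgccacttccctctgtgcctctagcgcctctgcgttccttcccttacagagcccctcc

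Mbd2 (ENSMUSG00000024513.9), the reader gene, spans 70727843 to 70785785 on chromosome 18 and had a peak of 413 bp in an intron. The center was 30933 bp downstream of the most upstream coding TSS and 30788 bp downstream of the last. An annotated start of a transcript with a retained intron was nearer, at 5867 bp. This peak had the lowest CpG ratio of the 8, at 0.087 with 2 CpGs, and no motif match at up to 3 mismatches.

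Prmt7 (ENSMUSG00000060098.5), on chromosome 8 from 108734836 to 108776694, had no peak within 40 kb of its 4 coding TSSs. The nearest peak, chr8:108692313-108693021, lay just outside this limit at -42169 bp. It was 709 bp wide and lay at -108 bp from a TSS of Slc7a6, an amino acid transporter gene.

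**Figure D2:**
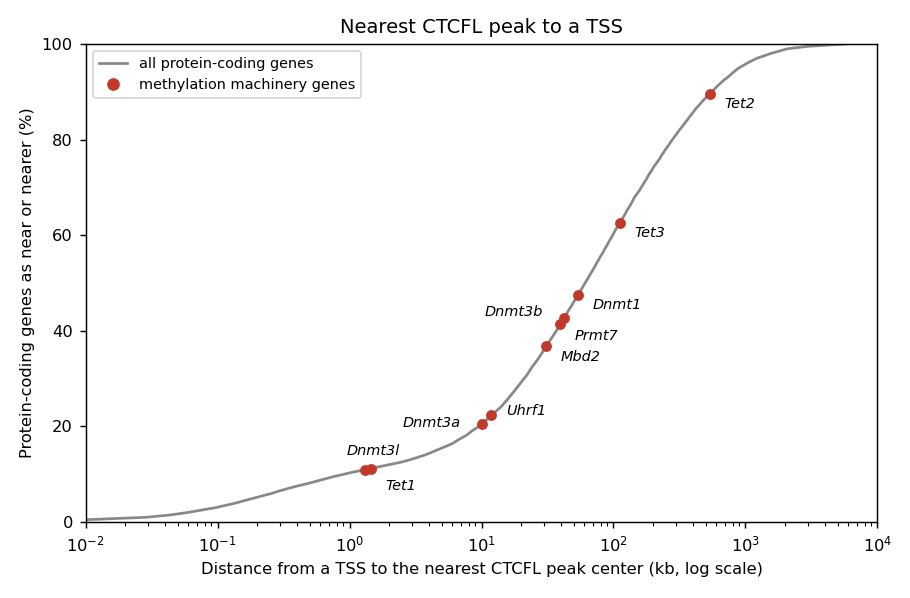
Share of protein-coding genes (%) with a CTCFL peak center as near or nearer to a TSS, against that distance in kb on a log scale (gray line), with the 10 genes as red points on it. Dnmt3l and Tet1 lie at 11% and 11.2%, and Tet3 and Tet2 at 62.6% and 89.6%.

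Ordered by the distance from a TSS to the nearest peak center, the members ran from Dnmt3l (1300 bp) and Tet1 (1462 bp) through Dnmt3a (10093 bp), Uhrf1 (11869 bp), Mbd2 (30788 bp), Dnmt3b (39665 bp), Prmt7 (42169 bp) and Dnmt1 (54129 bp) to Tet3 (111428 bp) and Tet2 (538168 bp). The median of the members was 35226.5 bp and that of all 22359 protein-coding genes was 60908 bp. Several of these peaks were nearer to the TSS of another gene. Of the 8 peaks, 4 had their nearest coding TSS in the member itself (both peaks of Dnmt3a and those of Tet1 and Mbd2). The other 4 were nearest to Aire, Pfkl, Plin3 and Commd7, and 3 of these lay within the promoter interval of that neighbor. The share of all peaks within the promoter interval of some gene is not given here, so nothing particular to these 8 peaks is read from this. At least 2 peaks within 40 kb of a TSS were found at Dnmt3a and Dnmt3l, which is 20% of the members and 15.3% of all genes.

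**Figure D3:**
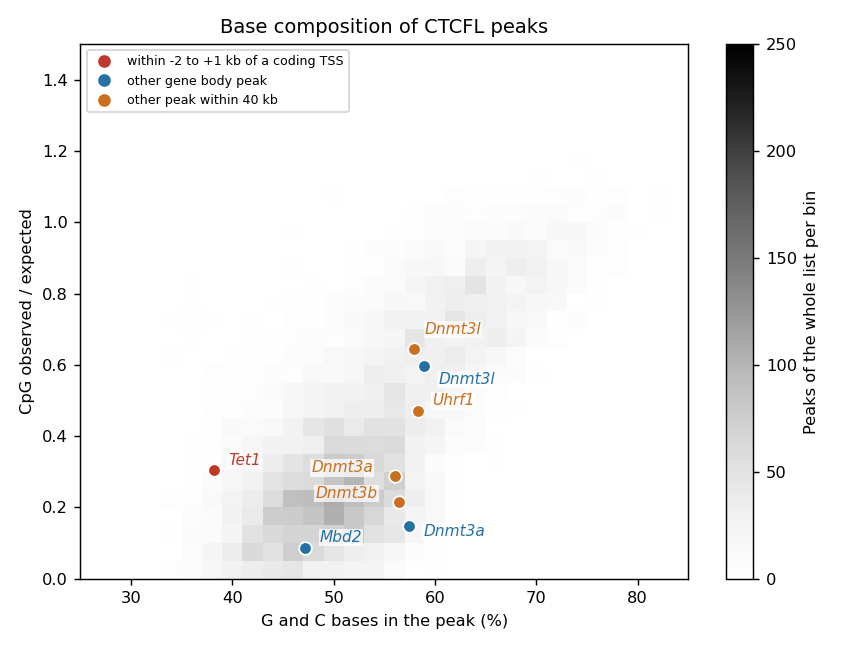
Ratio of observed to expected CpG against the share of G and C (%) in all 7436 CTCFL peaks (gray shading, number per bin) and in the 8 peaks of the methylation machinery genes (points: red in the promoter interval, blue elsewhere in the gene, orange elsewhere within 40 kb). Tet1 stands at the A and T rich side with 38.2% G and C, and the highest CpG ratio among the 8 is 0.645 at the Dnmt3l peak that lies at Pfkl.

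The CpG content of the 8 peaks varied widely. Their ratio of observed to expected CpG ranged from 0.087 to 0.645 with a median of 0.296, and the median of all peaks was 0.344. The 3 highest values (0.645, 0.598 and 0.471) belonged to the peaks next to a coding TSS of Pfkl (inside the gene), of Aire and of Plin3. The widths ranged from 225 to 645 bp with a median of 387 bp, compared with 454 bp over all peaks, and 3 of the 8 were at or above that median.

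The sequence at the members' own starts was examined as well. Within 500 bp on either side of the most upstream coding TSS, the ratio of observed to expected CpG was 0.195 at Dnmt3l, 0.27 at Tet1, 0.532 at Uhrf1, 0.537 at Tet3 and 0.586 at Dnmt1. It was 0.769 at Dnmt3a, 0.83 at Dnmt3b and Mbd2, 0.92 at Tet2 and 0.921 at Prmt7. The median of the members was 0.677. All 22359 promoters had a median of 0.553 and the 2241 with a peak in the interval had 0.741. The last 5 genes lie above the median of the promoters with a peak and, like the other members, had no peak there. Most promoters with such ratios had none either. A peak was present at 227 of 1273 promoters with ratios of 0.76 to 0.80 and at 203 of 1205 with 0.80 to 0.84. The motif at up to 1 mismatch was present from -2 kb to +1 kb of this TSS at the same 5 genes. It was present in 26.8% of all promoters of this length, in 63.6% of those with a peak and in 22.7% of those without. Of the 5983 promoters with the motif at up to 1 mismatch, 1426 had a peak, so a promoter with the motif more often had none. At Dnmt3a the match was exact, which was so in 2.68% of all promoters. AGGNGGC was present at all 10 members and in 84.9% of all promoters. The promoter intervals held 93.9 to 100% unique 36-base windows at 8 members, 86.1% at Uhrf1 and 70.8% at Tet1.

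**Figure D4:**
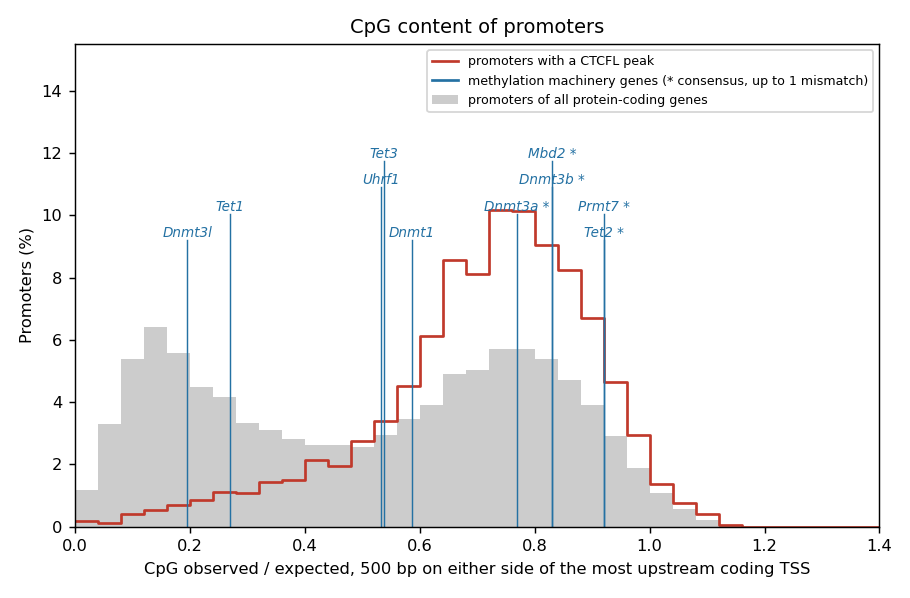
Ratio of observed to expected CpG within 500 bp of the most upstream coding TSS, as the share (%) of all promoters (gray bars) and of promoters with a CTCFL peak (red line), with the 10 genes as blue lines. The genes with a motif match at up to 1 mismatch (asterisks) are Dnmt3a, Dnmt3b, Mbd2, Tet2 and Prmt7, at ratios of 0.769 to 0.921. None of the 10 genes has a peak in this interval, and of all 5983 promoters with such a match 1426 have one.

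Across the genes and their 40 kb surroundings there were 57 matches at up to 1 mismatch, of which 5 (8.77%) were in peaks, compared with 7.31% of 52074 matches on the 21 chromosomes. Without mismatch there were 6 matches and 3 were in peaks, beside 30.4% of 3202 matches in all. Tet3 had 12 matches and Dnmt3b 6 at up to 1 mismatch, and none of them was in a peak.

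**Figure D5:**
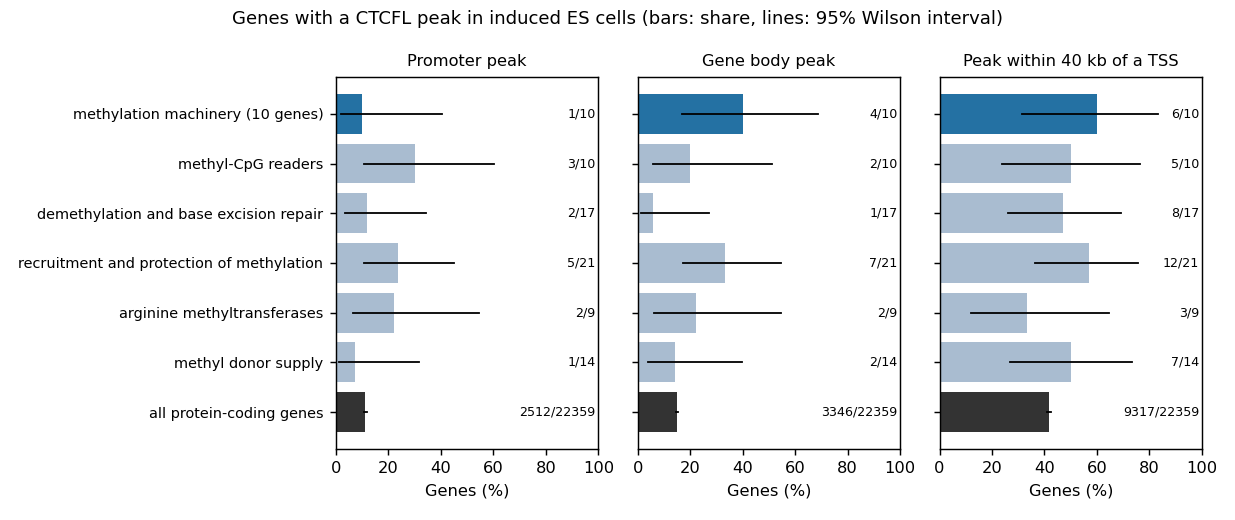
Share of genes (%) with a CTCFL peak in the promoter interval, in the gene body and within 40 kb of a TSS, for the 10 genes (blue), for 5 lists of other genes of DNA methylation (light blue) and for all protein-coding genes (black). Lines are 95% Wilson intervals and the counts stand at the right, from 1 of 10 to 6 of 10 for the methylation machinery genes.

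The wider set of genes around DNA methylation was described through 5 lists with 71 genes, all found in the annotation. A promoter peak was present at 13 of them (18.3%, 95% Wilson interval 11 to 28.8%), beside 11.2% of all protein-coding genes. A gene body peak was present at 14 (19.7%, 12.1 to 30.4%), beside 15.0% of all genes, and a peak within 40 kb at 35 (49.3%, 38 to 60.7%), beside 41.7%. All 3 background shares lie inside the intervals of the 71 genes, the promoter share at the lower end. The counts of the single lists below are small and are read against the same 11.2%. The methyl-CpG readers had promoter peaks at 3 of 10 genes. These were Zbtb33, which encodes Kaiso (-110 bp from the nearest TSS), Mbd4, a thymine glycosylase gene (191 bp), and Mbd1 (-224 bp). The other 7 listed readers had none, and neither had Mbd2. Of 9 genes for arginine methyltransferases and a cofactor, Prmt3 (-174 bp) and Carm1 (725 bp) had a promoter peak. Among 21 genes listed for recruiting, keeping or limiting methylation there were 5. They include the H3K9 methyltransferase genes Ehmt2 (38 bp, at an internal TSS) and Ehmt1 (-78 bp). The CXXC protein gene Kdm2b is another (85 bp, at an internal TSS, and a second peak at -930 bp). The paralogs Ctcfl (-124 bp) and Ctcf (184 bp) also belong to this list. The transgene holds mouse CTCFL sequence, so its reads and those of the Ctcfl locus cannot be told apart where they overlap. The counts of this list and of the 71 genes include Ctcfl. Mat2a, which supplies the methyl donor S-adenosylmethionine, was the only one of 14 methyl donor genes with a promoter peak (-358 bp). Of 17 genes of demethylation and repair 2 had a promoter peak, among them Gadd45b with 2 listed peaks, at -813 and -1360 bp. Their intervals, chr10:80391735-80392312 and chr10:80391227-80391725, nearly touch and would be 1 peak if neighbors within 1000 bp were merged.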

How the data were processed

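CTCFL binding was measured by ChIP-sequencing with 1 library for each of 3 conditions. The authors sequenced 36-bp reads, mapped them with ELAND to the NCBI mouse genome, and describe alignment to mm9 with BOWTIE and peak calling with MACS under an fdr limit for published data sets that they downloaded. How the deposited CTCFL list was called is not given in the sources used here. The deposited file holds starts and ends of peaks in bp on mm9, 1-based here after adding 1 to the start, and the number of unmapped columns is 0. Depth is unknown.

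Peaks were compared with the NCBIM37 genome and GENCODE vM1 annotation of the same build. No test was made: members are described by counts beside the share of all protein-coding genes or all peaks. The scripts were checked on planted peaks and motifs. All 10 members are named, and of 71 other genes up to 12 with a promoter peak, nearest to a TSS first. Members, lists and the motif, which was read by eye from the published logo, were chosen with earlier results of these data known. The longer sequence around the Tet1 site is not reported here. Intervals are 95% Wilson intervals. Alternatives changed the TSSs, the intervals, the peaks kept and the mismatches. Python 3.11.15, numpy 2.4.6, scipy 1.17.1, pysam 0.24.0, numba 0.67.0 and matplotlib 3.10.9 were used.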

Additional observations from a re-analysis of the deposited data

How the results depend on the processing

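No paired analysis was possible because there was a single library per condition, and no replicate could be left out. The number of members with a promoter peak (1) became 2 when any overlap of a peak with the interval was counted, which added Dnmt3l. It became 0 with the interval at 1 kb or at 500 bp on either side of a TSS, with peaks at or above the median width, and with the most upstream coding TSS alone, the last chosen after the data had been seen. Keeping peaks at or above the median width also left 1 member with a gene body peak (of 4), 3 with a peak within 40 kb (of 6) and 3 peaks (of 8), by construction. Counting promoter intervals and gene bodies alone left 4 peaks, of which 3 held the motif at up to 1 mismatch and 4 the inner motif, also by construction, and without mismatch the motif was in 3 of 8. The other alternatives, among them windows of 20 and 100 kb (4 and 8 members, beside 29.2 and 60.3% of all genes), the TSSs of all transcripts, peaks with at least 90% unique windows and merging of neighbors within 1000 bp, stayed within 1.5 times the counts reported. The missing depth limits every absence: a gene without a listed peak cannot be called unbound.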
